A study of Caenorhabditis elegans with 23 samples.

Results

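The ribosomal protein genes of Caenorhabditis elegans were taken as all genes whose name in the WBcel235 annotation starts with rpl- or rps-, for the large and the small ribosomal subunit. There were 78 of them, 47 rpl and 31 rps genes, and 77 could be placed in the deposited table of 1 kb windows. The exception was rpl-2, at the end of chromosome V, where the windows did not match the annotation. One placed gene, rpl-42, failed the filter on low values, so 76 of the 11264 protein-coding genes tested were ribosomal protein genes. The annotation calls all 78 protein coding.

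Each cytosolic ribosome carries its proteins in fixed proportions, and the cell therefore makes their mRNAs in large and balanced amounts. Large-subunit proteins surround the site of peptide bond formation and the exit tunnel of the new chain, and small-subunit proteins surround the site where the mRNA is decoded. Some ribosomal protein genes of C. elegans also hold, in their introns, genes for snoRNAs, the small RNAs that guide the modification of ribosomal RNA.

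Total RNA of young adult hermaphrodites, depleted of ribosomal RNA, was sequenced without selection of poly(A) RNA, in 19 libraries that were compared over 3 states of hrde-1, the gene of a nuclear Argonaute protein of the germline that carries small RNAs in heritable silencing. In 9 libraries the tm1200 mutation of hrde-1 had been repaired, written hrde-1(+R), and worms were collected at generations F3 to F8. Of these, 5 carried a mutation of the SET-domain gene set-32, namely set-32(ok1457) at F5 and F8, set-32(red11) at F4 and F5, and set-32(red11) with met-2(n4256) set-25(n5021) at F5. The other 4 repaired libraries had wild-type set-32, with F4 and F5 of hrde-1(+R) alone and F3 and F5 with met-2(n4256) set-25(n5021), mutations of a pair of histone methyltransferase genes. In 5 libraries hrde-1 was mutated by tm1200: alone, with met-2(n4256) set-25(n5021), with set-32(ok1457), with set-32(red11), and with set-32(red11) and met-2(n4256) set-25(n5021). In 5 more hrde-1 had never been mutated: set-32(ok1457), set-32(red11), set-32(ok1457) with met-2(n4256) set-25(n5021), met-2(n4256) set-25(n5021), and the wild-type strain N2. Each genotype and generation had 1 library, so strains that share a state served as replicates. Whether the libraries stem from separate cultures is not stated in the labels, and later repaired generations of a line are offspring of earlier ones. The p-values therefore measure only the spread between these libraries.

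Levels are given in RPKM of a 1 kb window, which equals the reads of that window scaled to a fixed total for each library. The libraries held 458687 to 1152825 reads, so that 1 read was worth 0.867 to 2.18 RPKM. Windows over the mutated genes had lower medians in the libraries whose labels name the mutation: met-2 stood at 6.54 to 9.87 RPKM in the 7 mutant libraries, against 25.8 to 47.4 RPKM in the other 12. For set-25 the ranges met, with 5.30 to 11.65 RPKM in the same 7 libraries and 10.09 to 18.38 RPKM in the other 12. They also met for hrde-1, with 85.6 to 139 RPKM in 5 tm1200 libraries and 125 to 271 RPKM in the other 14, and for set-32 they were 3.285 to 11.18 RPKM in 11 mutant libraries and 9.11 to 18.2 RPKM in 8 libraries with wild-type set-32. Libraries also differed in marker genes of tissues. The summed level of 38 sperm genes ran from 83.1 to 1414 RPKM in repaired, from 260.1 to 457.9 RPKM in tm1200 and from 78.4 to 771.6 RPKM in never-mutated libraries, and no gene of the sperm, oocyte, germline, intestine, muscle, neuron or cuticle lists was at 0 in all libraries. In RNA of whole worms, fewer cells of a type and less RNA per cell cannot be told apart.

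The ribosomal protein genes were among the protein-coding genes with the highest window levels. Other RNAs were not ranked, and genes that share a window can hold the same value. Their mean levels over the 19 libraries ran from 61.9 to 1083 RPKM, with a median of 491.2 RPKM, against a median of 9.22 RPKM over all genes tested. They made up 12 of the 50 highest genes, 37 of the 100 highest and 59 of the 200 highest, and 75 of 76 lay above the 90th percentile of all genes (63.6 RPKM). Their windows together held 3.46% to 4.69% of each library's total.

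The highest level was that of rpl-24.1, which encodes a large-subunit protein at the contact with the small subunit, at 1083 ± 164 RPKM (SD, n = 19 here and below for levels over all libraries). It was followed by the small-subunit gene rps-12 at 1070 ± 146 RPKM and by rps-23, whose product lies at the decoding site, at 966.8 ± 129 RPKM. Next came rpl-5, whose product carries the smallest ribosomal RNA into the large subunit, at 870.3 ± 110 RPKM, and rps-13 at 849.7 ± 110 RPKM. Neighbours in this order did not differ by more than their SDs. At the other end stood rpl-24.2 at 61.9 ± 14.9 RPKM, rpl-41.1 at 72.5 ± 16.7 RPKM, rpl-25.1 at 76.4 ± 18.8 RPKM and rps-22 at 92.6 ± 14.7 RPKM.

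The window assigned to rpl-42 was set apart from all others. It was listed at 0 in 11 of 19 libraries and reached at most 2.18 RPKM, in set-32(ok1457); hrde-1(tm1200), so at most the worth of 1 read in that library. The neighbouring gene on chromosome II, rpl-36.A, had 307.8 ± 46.7 RPKM. Whether the window is the right one for rpl-42 could not be settled, so its values are those of the window.

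**Figure D1:**
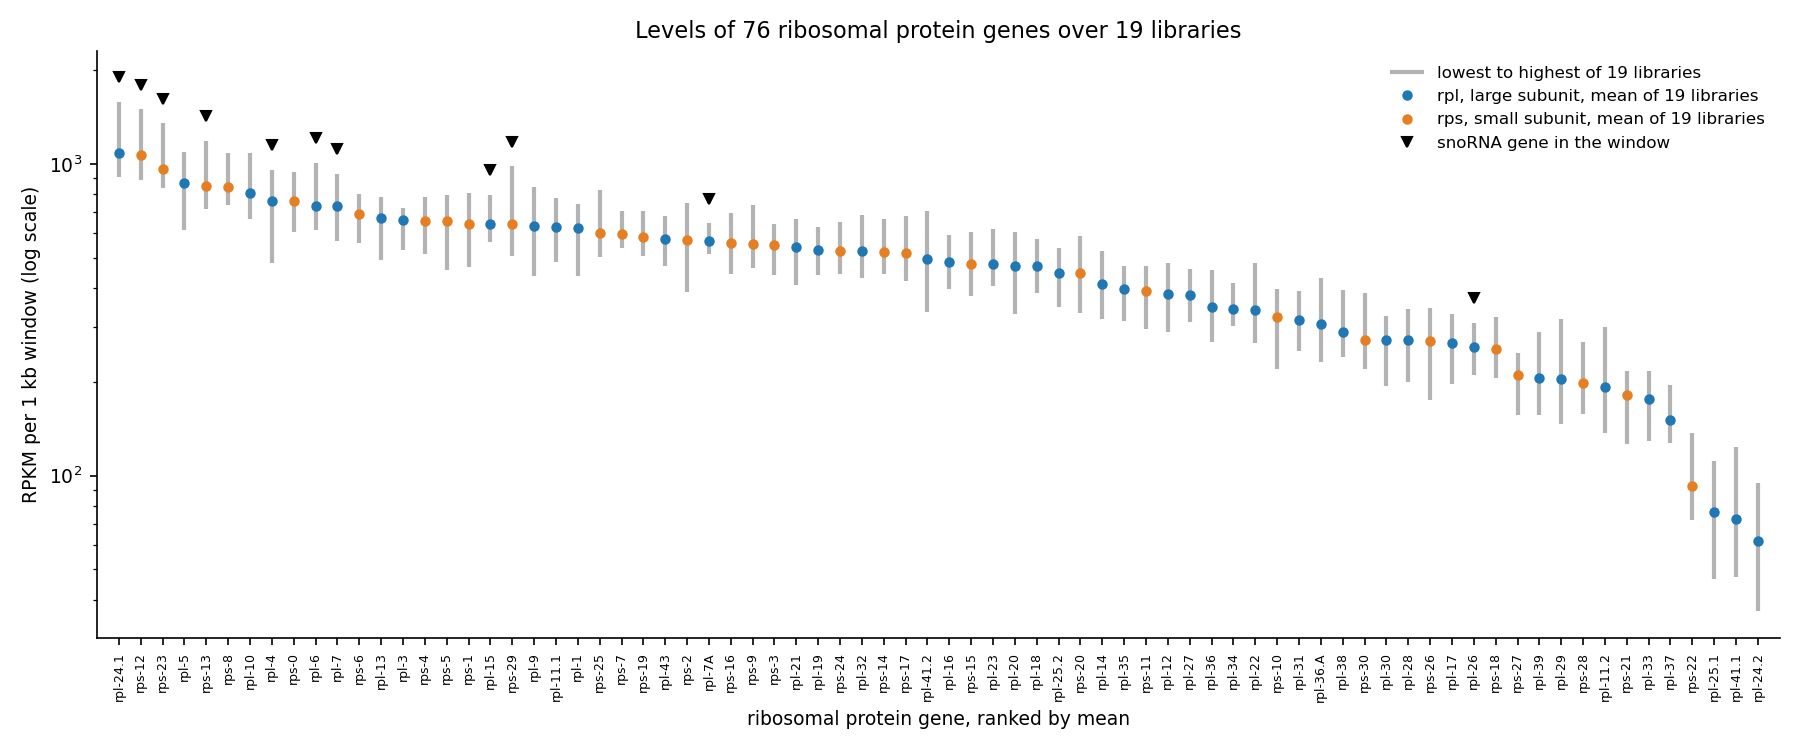
Mean level of each of the 76 ribosomal protein genes over 19 libraries (points, blue for rpl and orange for rps genes) in RPKM per 1 kb window on a log axis, with grey bars from the lowest to the highest library and triangles over windows that hold a snoRNA gene. The means fall from 1083 RPKM for rpl-24.1 to 61.9 RPKM for rpl-24.2, and 4 of the 5 highest windows hold a snoRNA gene.

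The genes were short, with a median length of 753.5 bp and 62 of 78 under 1000 bp, so most windows held intergenic or intronic sequence too. For 72 of the 76 a single window was read, and no window served 2 ribosomal protein genes, but 48 windows or pairs of windows also held exons of other genes. Divided by the length of the gene's own exons within its windows, large-subunit genes had a median of 1008 RPKM per kb and small-subunit genes 1051 RPKM per kb. On that scale the lowest were again rpl-24.2 at 127.6, rpl-25.1 at 154.6, rpl-41.1 at 219.1 and rps-22 at 262.2 RPKM per kb, and rps-12 was the highest at 3486 RPKM per kb.

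A snoRNA gene lay in the windows of 11 of the 76 genes: rpl-4, rpl-6, rpl-7, rpl-7A, rpl-15, rpl-24.1, rpl-26, rps-12, rps-13, rps-23 and rps-29. Their median was 735.2 RPKM, against 470.4 RPKM for the other 65, and 1895 against 1008 RPKM per kb of own exon. These 11 made up 7 of the 10 highest genes per kb of own exon. The RNA was not selected for poly(A), so reads of a snoRNA and of its host mRNA add up in such a window, and their parts in the level were not tested. The windows at rpl-24.1, rps-12, rps-23 and rps-13 are among these, so the top of the ranking is uncertain as a ranking of mRNAs.

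The genes were unevenly spread over the chromosomes. Chromosome I held 23 of the 78, or 29.5%, against 14.4% of all protein-coding genes, and chromosome III held 18, or 23.1% against 13.2%. Only 2 of the 78, or 2.56%, were on the X chromosome, against 13.7% of all protein-coding genes. Both, rpl-11.2 and rpl-25.1, are the lower copy of a pair whose other copy lies on an autosome.

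Levels varied little between libraries. The SD of log2(RPKM + 1) over the 19 libraries had a median of 0.18 over the 76 genes, against 0.39 over all genes tested, and all 76 lay below that median. High genes vary less in general, and the other 1077 genes with means between the lowest and highest ribosomal protein gene had a median SD of 0.27. Of the 76, 72 lay below that value. These other genes share the range but were not matched in level, since 59 of the 76 are among the 200 highest genes. The part of level in the difference was not tested. Within the 6 groups of hrde-1 state and set-32 the median SD was 0.18, as over all libraries. Counting of reads alone would give a median SD of 0.076, and the ratio of a gene's observed SD to its counting SD had a median of 2.2.

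The steadiest gene was rpl-7A of the large subunit, at 513.6 to 645.8 RPKM over the 19 libraries, with an SD of 0.094 on the log2 scale. It was followed by rps-7, by rpl-3, whose product lies near the site of peptide bond formation, by rpl-15 and by rps-6, the ribosomal substrate of S6 kinase, with SDs of 0.12 to 0.13. The levels of rpl-7A, rpl-3 and rpl-15 are means of 2 windows, as for only 4 of the 76 genes. Those windows also hold exons of other genes. In a window of rpl-7A a share of 0.579 of the values was no whole number of reads. Reads with several matches may have been divided there. The part of either in the small SDs was not tested. In 70 of the 76 genes the highest library was less than 2 times the lowest. The 6 exceptions were rpl-41.1 (2.61 times), rpl-24.2 (2.58), rpl-25.1 (2.38), rpl-11.2 (2.19), rpl-29 (2.18) and rpl-41.2 (2.10). The largest SDs were those of rpl-24.2 at 0.35, rpl-25.1 at 0.34, rpl-11.2 at 0.34, rpl-41.1 at 0.30 and rps-29 at 0.25. For rpl-24.2, rpl-25.1 and rpl-41.1 counting error accounts for more of this, with counting SDs of 0.22, 0.20 and 0.20.

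**Figure D2:**
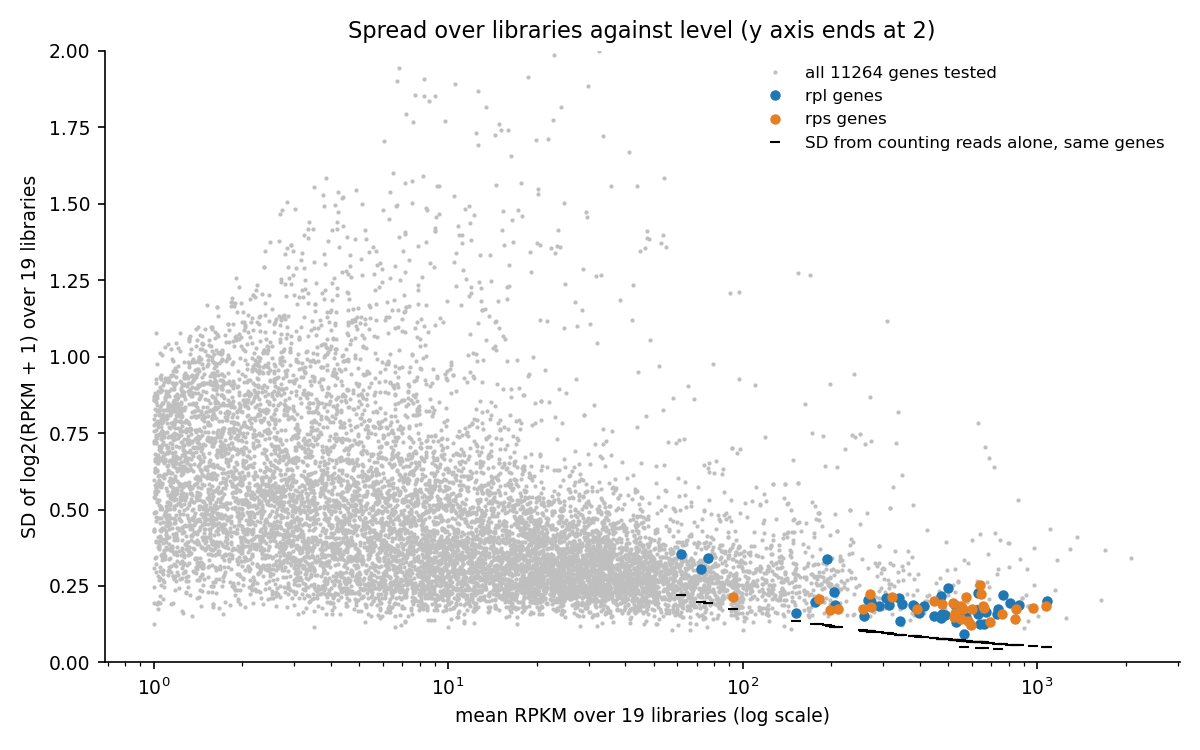
SD of log2(RPKM + 1) over 19 libraries against mean RPKM (log axis) for all 11264 genes tested (grey) and the 76 ribosomal protein genes (blue rpl, orange rps), with black dashes for the SD that counting reads alone would give the same 76 genes. The y axis ends at 2 and leaves out 16 grey points. The ribosomal protein genes lie between 0.094 and 0.353, with 67 of 76 below the 10th percentile of all genes tested (0.224).

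Part of the spread ran through nearly all genes at once. When each gene's level was set against its own mean over the 19 libraries, the median over the 76 genes ranged from -0.18 to 0.30 on the log2 scale between libraries. The hrde-1(+R) F4 library stood highest, with 66 of 76 genes above their own mean and 40 of 76 at their highest value. In met-2(n4256) set-25(n5021), 73 of 76 were above their mean. In set-32(ok1457); hrde-1(+R) F5 only 2 of 76 were above their mean. The median deviation of the 76 genes in these libraries was 0.303, 0.204 and -0.166 in the order given. Over all genes tested it was 0.042, 0.096 and 0.093.

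The share of each library's total in the ribosomal protein windows averaged 3.96% ± 0.35 in repaired (SD, n = 9), 3.75% ± 0.16 in tm1200 (n = 5) and 4.05% ± 0.30 in never-mutated libraries (n = 5), with ranges that overlapped between all 3 states. With wild-type set-32 and no other mutation it was 4.69% and 4.04% at F4 and F5 after repair, 3.80% in hrde-1(tm1200) and 3.97% in N2. With set-32(ok1457) it was 3.46% and 3.86% at F5 and F8 after repair, 3.71% with tm1200 and 3.77% with hrde-1 never mutated. With set-32(red11) the shares were 3.65% and 4.04% at F4 and F5 after repair, 3.74% and 3.79%, and with met-2(n4256) set-25(n5021) they were 3.98% and 3.74% at F3 and F5 after repair, 3.95% and 4.41%, in the same order of states. In each of these 4 strains the share was lower with tm1200 than with hrde-1 never mutated, by less than the difference between both repaired generations in 3 of them. All windows held 90.24% (set-32(ok1457); hrde-1(tm1200)) to 99.08% (N2) of a library's total, which affects the shares. With median-ratio rescaling, the median deviation of the 76 genes was 0.048 in hrde-1(tm1200) and 0.030 in N2, so the order turned. It was 0.010 and -0.122 with set-32(ok1457), -0.072 and -0.017 with set-32(red11), and -0.007 and 0.138 with met-2(n4256) set-25(n5021). The share of the later repaired generation was the higher in the 2 set-32 lines and the lower in the other 2 lines. By set-32 state the share averaged 3.82% ± 0.26 in mutants (n = 11) and 4.07% ± 0.32 in libraries with wild-type set-32 (n = 8).

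**Figure D3:**
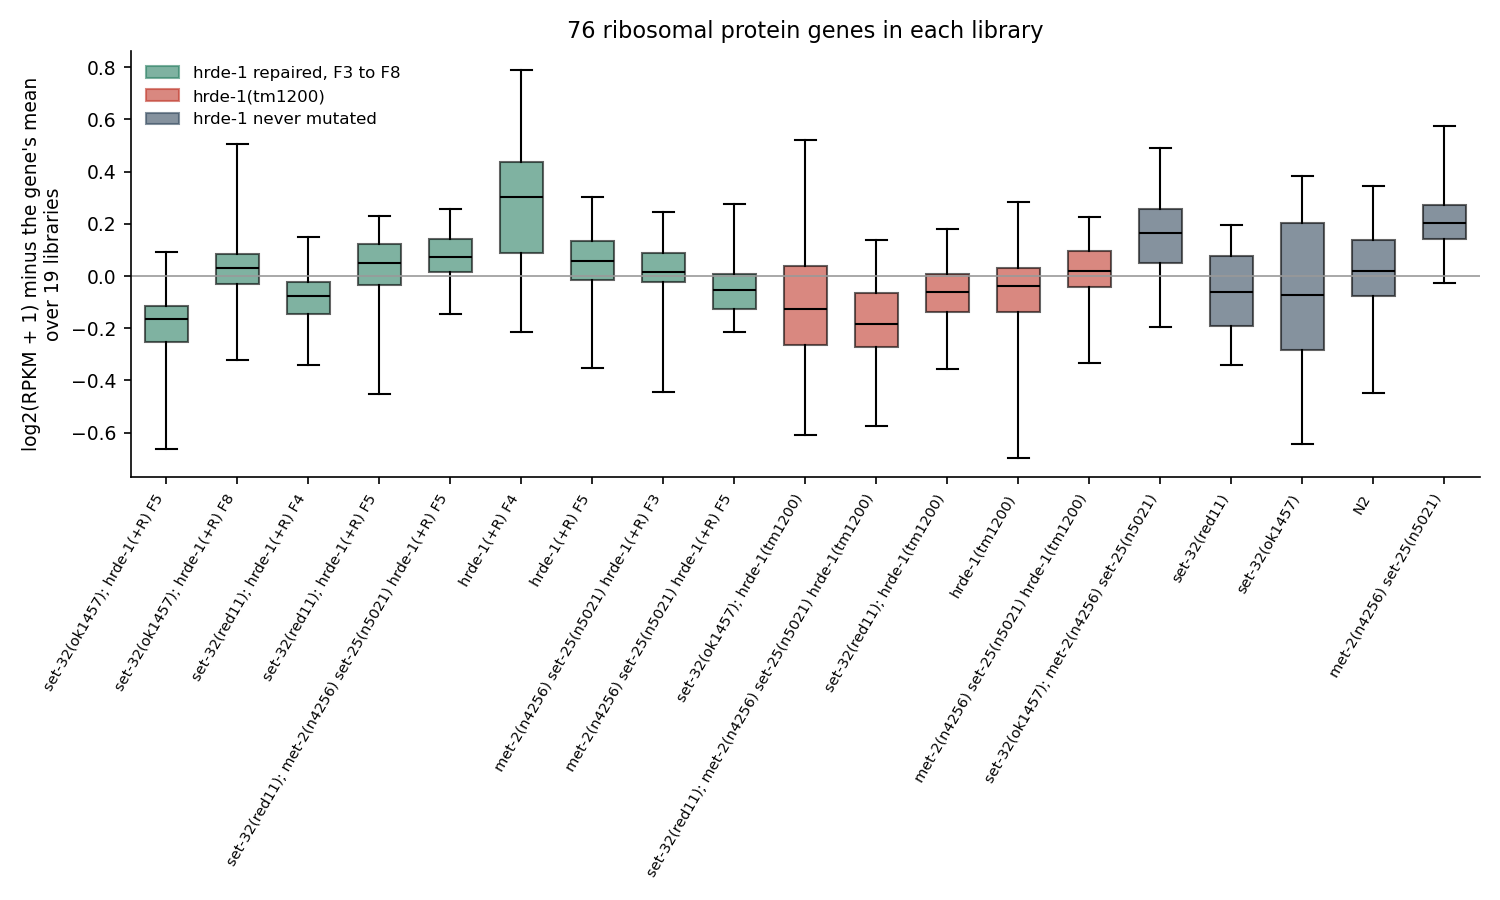
Level of the 76 ribosomal protein genes in each library, as log2(RPKM + 1) minus the gene's mean over 19 libraries; boxes span the quartiles with the median as a line, and whiskers reach the lowest and highest gene. Medians run from -0.18 to 0.30, with hrde-1(+R) F4 highest, and the boxes of set-32(ok1457), hrde-1(+R) F4 and set-32(ok1457); hrde-1(tm1200) are the widest.

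A second shared pattern set the genes against each other. In a singular value decomposition of these deviations the first pattern held 42.9% of the spread, with the same sign in 75 of 76 genes and the other sign in rpl-4, and the second held 30.1%, with 44 genes (25 rpl and 19 rps) of one sign and 32 of the other. The third held 5.5%. In the second pattern, rpl-9, rpl-4, whose product lines the exit tunnel, rps-2, rps-1 and rps-10 stood farthest on one side, and rps-29, rpl-41.2, rpl-41.1, rpl-24.1 and rpl-6 on the other. The pattern therefore did not split large-subunit from small-subunit genes.

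Genes on the side of rpl-9 had a median of 616 bp of exon, against 475.5 bp on the side of rps-29 (Spearman's rho of 0.43 with exon length over the 76 genes, which share the libraries). Exon length was singled out after values were seen, among 4 properties looked at, and the correlation with mean level was 0.0. A trend with exon length was not particular to these genes. Over all genes tested, rho with exon length was -0.21 in set-32(ok1457), -0.25 in hrde-1(+R) F4 and 0.21 in N2. Over the 76 genes it was -0.46, -0.47 and 0.42. In other libraries the values differed, as in met-2(n4256) set-25(n5021), with -0.21 over all genes and 0.03 over the 76. Windows with a snoRNA gene made up 6 of the 10 genes farthest on the side of rps-29, and 8 of the 11 such windows lay on that side, but rpl-4, also a snoRNA window, stood second farthest on the side of rpl-9, where rpl-7A and rpl-26 lay too.

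In set-32(ok1457) rpl-9 had 437.3 RPKM and rps-29 had 742.6 RPKM, while in N2 rpl-9 had 723.5 RPKM and rps-29 had 536.6 RPKM. The 3 libraries whose genes were spread most, with quartile ranges of 0.485 in set-32(ok1457), 0.349 in hrde-1(+R) F4 and 0.303 in set-32(ok1457); hrde-1(tm1200), deviated alike, with correlations of 0.61 to 0.85 over the 76 genes. They belong to 3 different states of hrde-1. The median deviation of the cuticle genes from their means over the 19 libraries was 1.26, 1.15 and 0.97 on the log2 scale in the order given, but their summed levels of 3246, 4382 and 3316 RPKM were high only in hrde-1(+R) F4, within 1838 to 4640 RPKM over all libraries. The germline genes were low in the 3 libraries, with median deviations of -0.58, -0.46 and -0.38. The part of tissue composition and of exon length in the pattern was not tested.

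No ribosomal protein gene passed the test in any of the 8 comparisons. limma was fitted on log2(RPKM + 1) over all 11264 genes, and calls asked for an adjusted p (Benjamini-Hochberg) below 0.05 and a log2 fold change of 1 or more in either direction. Without the fold minimum the count of ribosomal protein genes called was likewise 0 of 76 in each comparison. The intervals were narrow: in 7 of the comparisons the 95% intervals of all 76 genes lay within 1 on the log2 scale in either direction, so a change of 2 times or more lay outside them.

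With hrde-1(tm1200), against hrde-1 never mutated, 0 of 76 genes were called, where 0.435% of all genes were called (0.444% without the fold minimum). At an unadjusted p under 0.05 there were 6 of 76, against 5.73% of all genes. The fold change was negative in 69 genes and positive in 7, with a median of -0.13, while the median of all genes was -0.06. Without the met-2 set-25 libraries the median of the 76 was -0.06 with 22 positive and 54 negative, beside -0.05 over all genes, and with libraries rescaled by the median ratio it was -0.07. The lowest adjusted p was 0.675 (limma). All 12 muscle markers were also negative, with a median of -0.275, while 28 of 36 sperm markers were positive, with a median of 0.33, and their part in these values was not tested. The 6 genes at an unadjusted p under 0.05, all with a lower level in tm1200, were rpl-14, rpl-17, rpl-24.2, rpl-36, rps-16 and rps-20. Their number was 15 without the set-32(ok1457) library, 1 when libraries were rescaled by the median ratio and 0 without the met-2 set-25 libraries.

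The largest negative value was that of rpl-24.2, at 45.8, 40.96, 48.7, 36.8 and 57.3 RPKM in the tm1200 libraries, against 78.3, 52.6, 78.9, 43.9 and 65.3 RPKM in the never-mutated ones. The groups overlapped, since N2 and set-32(red11) stood among the tm1200 values. The log2 fold change was -0.45 (SE 0.18, adjusted p = 0.764 by limma). Next was rpl-17, whose product lines the exit tunnel, with 196.2, 209.5, 235.8, 241.6 and 241.5 RPKM in tm1200 and 298.3, 268.4, 216.5, 304.4 and 329.0 RPKM in never-mutated libraries. All tm1200 values lay below the never-mutated ones other than set-32(ok1457), and the log2 fold change was -0.32 (SE 0.12, adjusted p = 0.733 by limma). The third was rps-26, whose product lies where the mRNA leaves the ribosome, at -0.31 (SE 0.15). The rpl-17 window holds 309 bp of its own exons and 430 bp of exons of Y48G8AL.7. For rps-26 these are 369 bp, and 363 bp of gpr-158. The part of the other genes in these levels was not tested. A share of 0.474 of the rps-26 values was no whole number of reads, so reads may have been divided there. Positive values were small, with rps-13 at 0.08, rpl-24.1 at 0.07 and rps-29 at 0.06, all 3 in windows with a snoRNA gene, and without set-32(ok1457); hrde-1(tm1200) rpl-24.1 had -0.006 and rps-29 -0.04.

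After repair, against hrde-1(tm1200), 0 of 76 genes were called, where 0.408% of all genes were called (0.462% without the fold minimum), and 4 of 76 had an unadjusted p under 0.05, against 8.32% of all genes. The values were positive in 71 genes and negative in 5, with a median of 0.09, and 61.1% of all genes were positive with a median of 0.07. When libraries were rescaled by the median ratio, 42 genes were positive and 34 negative, with a median of 0.01. Without hrde-1(+R) F4 the median was 0.05. Of 36 sperm markers 1 was positive, with a median of -0.41, and of 12 muscle markers 1 was, with a median of -0.14, and their part in these values was not tested. This comparison and the last share the tm1200 libraries. The 4 genes were rpl-24.2, rpl-41.1, rpl-17 and rps-21, all with higher levels after repair.

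In repaired libraries rpl-24.2 stood at 57.7 to 94.9 RPKM (69.7 ± 10.8, mean ± SD, n = 9), against 36.8 to 57.3 RPKM in tm1200 libraries (45.9 ± 7.82, n = 5). The ranges did not meet, but 57.7 and 57.3 RPKM differ by less than 1 read, worth 1.15 and 1.55 RPKM in those libraries. The log2 fold change of rpl-24.2 was 0.61 (SE 0.14, 95% interval 0.31 to 0.91), with an adjusted p of 0.0805 by limma, so it was not called. Without the tm1200 library that also carries met-2(n4256) set-25(n5021), which holds its highest tm1200 value, the fold change was 0.76 and the adjusted p 0.0499, a call only where no fold minimum is asked. Without the hrde-1(tm1200) library, which holds its lowest tm1200 value, the fold change was 0.46 and the adjusted p 0.756. With strain (set-32 allele with met-2 set-25) as a block, an alternative chosen after the data were seen, it was 0.58, with an adjusted p of 0.147 by limma. The window also holds exons of C03D6.1, whose part in the level was not tested. For rpl-41.1 the level was 79.9 ± 17.9 RPKM in repaired (n = 9) and 61.5 ± 10.0 RPKM in tm1200 libraries (n = 5), with a log2 fold change of 0.36 (SE 0.15, adjusted p = 0.545 by limma). For rpl-17 it was 279.2 ± 22.5 RPKM in repaired and 224.9 ± 20.8 RPKM in tm1200 libraries, at 0.30 (SE 0.10, adjusted p = 0.352 by limma). This window also holds exons of Y48G8AL.7, as given above. The lowest values were near 0, with rpl-7 at -0.08, rps-1 at -0.05 and rps-4 at -0.05, and without hrde-1(tm1200) rps-1 had 0.03.

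After repair, against hrde-1 never mutated, 0 of 76 genes were called, where 0.071% of all genes were, and none had an unadjusted p under 0.05, against 5.97% of all genes (limma). Values were positive in 20 and negative in 56 genes, with a median of -0.04. Without the met-2 set-25 libraries the direction turned, with 57 positive, 19 negative and a median of 0.07, and with 1 library left out the median lay between -0.08 and -0.003. All 12 muscle markers were negative in the comparison of all libraries, with a median of -0.445, and their part in these values was not tested. They ran from -0.21 for rps-16, whose window also holds exons of the snoRNP gene fib-1, to 0.21 for rpl-24.2. For rps-16 the level was 546.6 ± 56.9 RPKM in repaired and 630.1 ± 58.8 RPKM in never-mutated libraries, with an adjusted p of 0.855 by limma.

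**Figure D4:**
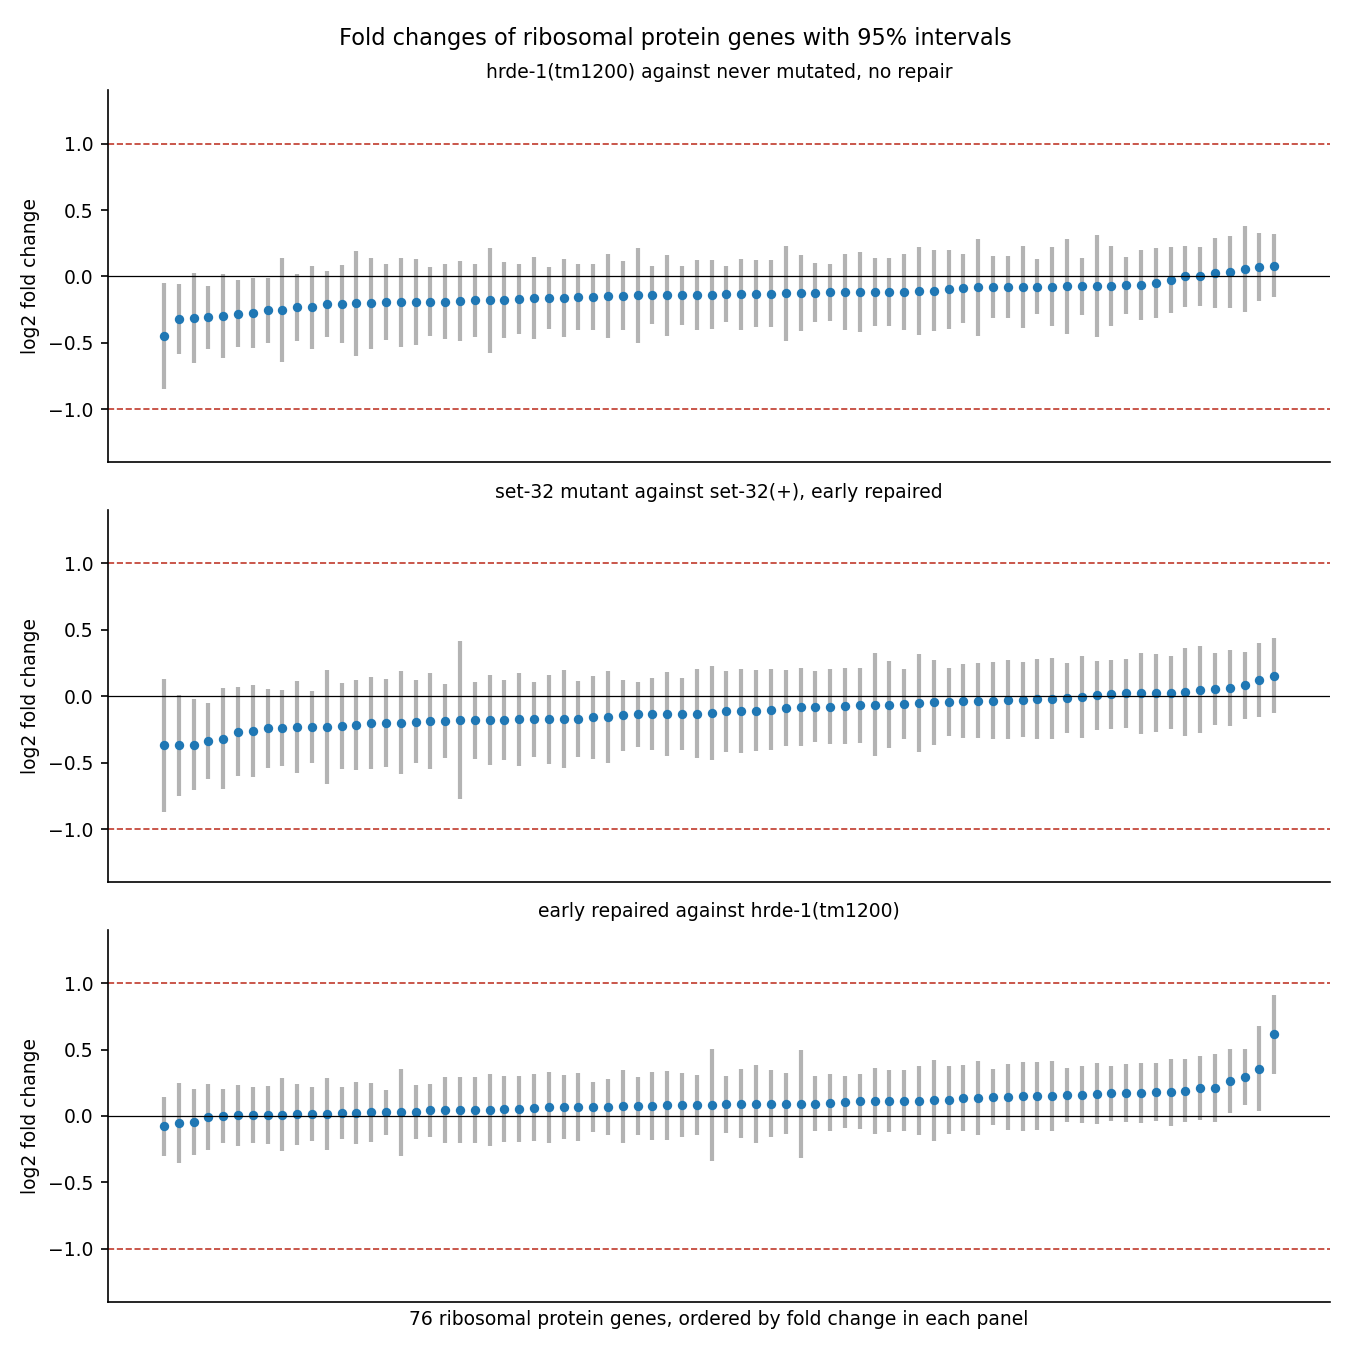
Log2 fold changes (points) with 95% intervals (grey bars) of the 76 ribosomal protein genes in 3 of the comparisons, ordered within each panel, with dashed red lines at a change of 2 times. All intervals lie within the dashed lines, and rpl-24.2 is the lowest point at the top left (-0.45) and the highest at the bottom right (0.61).

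Mutation of set-32 was compared separately with and without repair. In the 10 libraries without repair, set-32 mutants against set-32(+), 0 of 76 ribosomal protein genes and 0.0% of all genes were called by limma, and none of the 76 had an unadjusted p under 0.05, against 3.44% of all genes. Values ran from -0.22 for rps-10 and rpl-17 to 0.22 for rpl-11.2 and 0.21 for rpl-24.2, with 10 positive, 66 negative and a median of -0.09. Without the met-2 set-25 libraries 32 were positive and 44 negative, with a median of -0.03, and with set-32(ok1457) libraries alone as mutants 29 were positive and 47 negative, with a median of -0.02. Without the tm1200 library that carries set-32(red11) and met-2 set-25 the median was -0.04. All 12 muscle markers were negative too, with a median of -0.24, and 2 of 36 sperm markers were positive, with a median of -0.60, and their part in these values was not tested. The value of rpl-11.2 was 0.46 with set-32(ok1457) libraries alone as mutants and -0.004 with set-32(red11) libraries alone. That of rpl-24.2 was 0.07 without N2 and 0.025 with set-32(red11) libraries alone, and that of rps-10 was -0.09 without hrde-1(tm1200) and -0.44 without the met-2 set-25 libraries.

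In the 9 repaired libraries, set-32 mutants against set-32(+), 0 of 76 were called, where 0.0888% of all genes were, and 2 of 76 had an unadjusted p under 0.05, against 5.18% of all genes. Of the 76, 63 were negative and 13 positive, with a median of -0.12, against a median of -0.01 over all genes. Without the hrde-1(+R) F4 library the median was -0.01, and with set-32(ok1457) libraries alone as mutants it was -0.25. The lowest adjusted p was 0.906 (limma). In the same libraries 10 of 10 germline markers were positive, with a median of 0.23. Of 10 cuticle markers 1 was positive, with a median of -0.83, and of 36 sperm markers 4 were, with a median of -0.53. The part of these tissues in the values was not tested.

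For rpl-24.2 the mutants had 64.2, 64.9, 66.8, 57.7 and 61.7 RPKM, against 94.9, 74.5, 71.4 and 71.1 RPKM with set-32(+). All mutants lay below all set-32(+) libraries, and the log2 fold change was -0.34 (SE 0.13). The rpl-36.A window holds 247 bp of its own exons and 387 bp of exons of nbs-1, whose part in the level was not tested. For rpl-36.A the mutants had 231.4, 305.9, 259.4, 306.9 and 282.6 RPKM, against 432.3, 334.6, 342.8 and 286.2 RPKM with set-32(+). Here the groups overlapped, through the set-32(+) library at F5 with met-2(n4256) set-25(n5021), and the log2 fold change was -0.36 (SE 0.15). For rpl-41.1 it was -0.37 (SE 0.17) and for rpl-11.2 -0.37 (SE 0.23). Each of these 4 genes was highest, among set-32(+) libraries, in hrde-1(+R) F4, and without that library the fold changes of rpl-24.2, rpl-36.A, rpl-41.1 and rpl-11.2 were -0.22, -0.22, -0.14 and -0.16. The largest positive values were those of rpl-9 at 0.15, rpl-4 at 0.12 and rpl-18 at 0.08.

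The change with set-32 after repair minus that without repair was tested as an interaction over the 19 libraries. Again 0 of 76 genes were called, where 0.0799% of all genes were, and none had an unadjusted p under 0.05, against 3.76% of all genes (limma). The values ran from -0.46 (SE 0.32) for rpl-11.2 to 0.33 (SE 0.21) for rpl-9, with a median of -0.003, which lay between -0.07 and 0.08 with 1 library left out. The interval of rpl-11.2, from -1.13 to 0.21, was the only one of the 76 to pass 1 in either direction.

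Mutation of met-2 set-25 went with no call either. In libraries without repair, mutants against wild type for these genes, 0 of 76 were called, where 0.0266% of all genes were, and none had an unadjusted p under 0.05, against 7.02% of all genes (limma). Values were positive in 66 of 76, with a median of 0.10, and ran from -0.14 for rpl-41.2 to 0.33 (SE 0.15) for rps-22. The median was 0.05 with 56 positive without the never-mutated library that carries set-32(ok1457) and met-2 set-25, and 0.14 with all 76 positive without the tm1200 library that carries set-32(red11) and met-2 set-25. Without the 3 libraries of widest spread, an alternative chosen after the data were seen, rpl-41.2 had 0.04 in place of -0.14. In the same comparison all 12 muscle markers were positive, with a median of 0.43, as were 33 of 36 sperm markers, with a median of 0.70, and 9 of 10 cuticle markers, with a median of 0.44, and their part in these values was not tested.

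In repaired libraries with met-2 set-25 mutated, against those without, 0 of 76 were called, where 0.0178% of all genes were, and none had an unadjusted p under 0.05, against 6.0% of all genes (limma). Values were positive in 21 and negative in 55, with a median of -0.05. These counts rest on single libraries: without hrde-1(+R) F4, 45 were positive and 31 negative, with a median of 0.02, and without the set-32(+) library at F5 with met-2(n4256) set-25(n5021), 40 were positive and 36 negative. No muscle marker of 12 was positive, with a median of -0.44, and 2 of 36 sperm markers were, with a median of -1.01, and their part in these values was not tested. The extremes were rpl-11.2 at -0.36 (SE 0.24) and rps-27 at 0.16 (SE 0.14).

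The annotation holds 4 pairs of ribosomal protein genes whose names differ only after the point, and in each the copies differed in level. Per kb of own exon, rpl-11.2 on the X chromosome (2241738 to 2242618) had 375.2 RPKM and rpl-11.1 on chromosome V (3585312 to 3586064) had 1065 RPKM, a ratio of 2.84. The X-linked rpl-25.1 had 154.6 and rpl-25.2 on chromosome I had 902.4 RPKM per kb, a ratio of 5.84, for the protein at the mouth of the exit tunnel. The copies rpl-41.1 and rpl-41.2 lie next to each other on chromosome I and had 219.1 and 1775 RPKM per kb, a ratio of 8.1. The widest ratio, 20.3, was that of rpl-24.2 at 127.6 and rpl-24.1 at 2585 RPKM per kb. The product of rpl-24.2 is the counterpart of Rlp24 of budding yeast, a factor that assembles the large subunit, rather than a second ribosomal copy, and the rpl-24.1 window holds a snoRNA gene, so that this ratio is not one of mRNAs alone.

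The share of the lower copy was 25.9% ± 4.38 for rpl-11.2, 14.6% ± 2.91 for rpl-25.1 and 10.95% ± 1.18 for rpl-41.1 (SD, n = 19). For rpl-11.2 it averaged 24.98% ± 4.02 in repaired, 26.8% ± 6.23 in tm1200 and 26.5% ± 3.42 in never-mutated libraries, and for rpl-25.1 14.2% ± 3.31, 14.4% ± 2.73 and 15.5% ± 2.70 in the same order. The share of rpl-41.1 was 11.6% ± 1.15 in repaired, 10.0% ± 0.64 in tm1200 and 10.7% ± 1.06 in never-mutated libraries. For rpl-24.2 the share was 5.23% ± 0.66 in repaired (n = 9), 3.53% ± 0.65 in tm1200 (n = 5) and 5.00% ± 0.87 in never-mutated libraries (n = 5). The lowest tm1200 value was 2.85%, in hrde-1(tm1200), and the highest was 4.34%, which lay above the lowest repaired value of 4.12% and the lowest never-mutated value of 3.86%. Reads that match both rpl-41 copies may have been divided between them: a share of 0.421 of the values of rpl-41.1 and of 0.526 of those of rpl-41.2 was no whole number of reads.

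**Figure D5:**
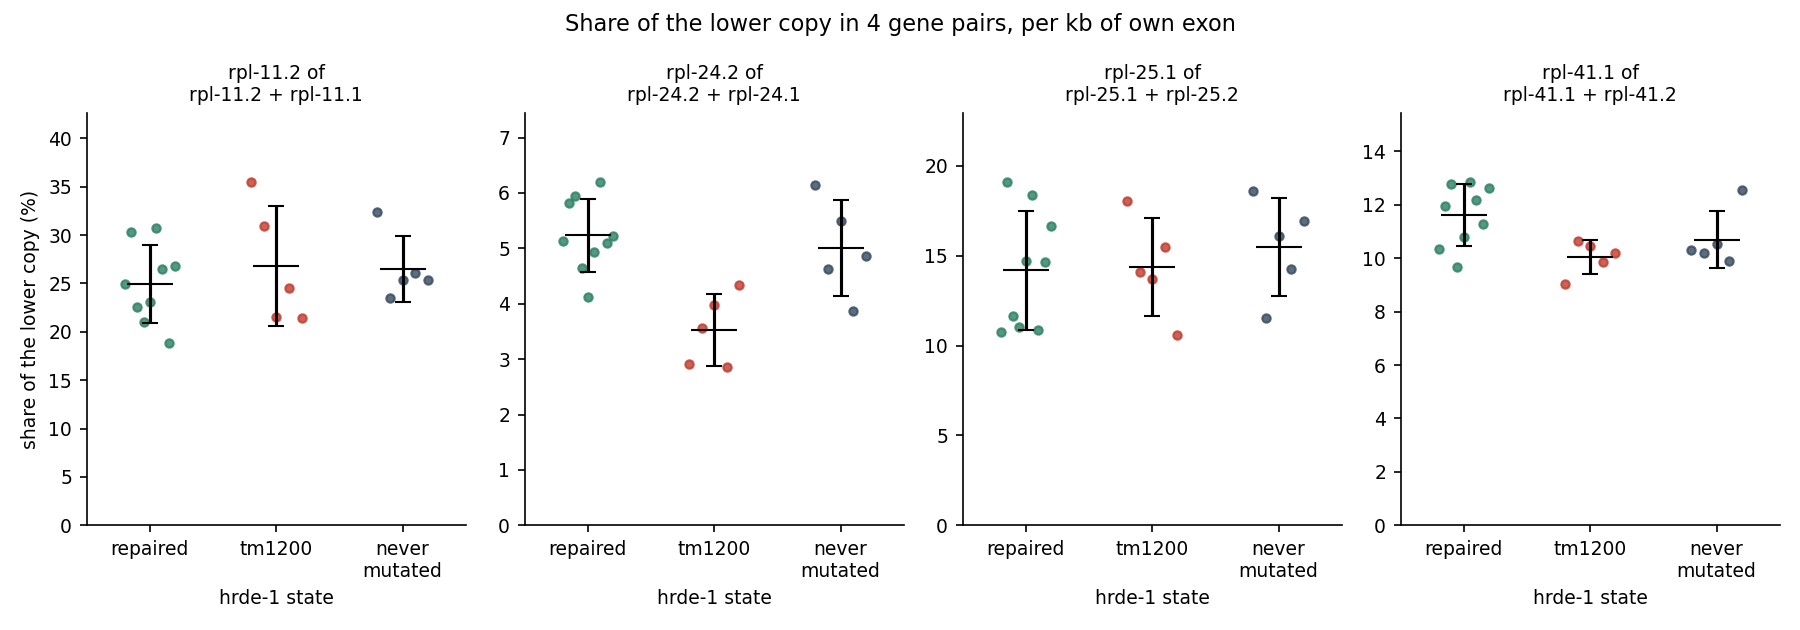
Share of the lower copy in the level per kb of own exon summed over both copies of a pair, in percent, for each library (points) by hrde-1 state, with the mean (dash) and SD (bars); n is 9 repaired, 5 tm1200 and 5 never-mutated libraries. The share of rpl-24.2 is 3.53% in tm1200, against 5.23% in repaired and 5.00% in never-mutated libraries, and the points overlap.

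Other proteins of the cytosolic ribosome, named outside the rule, were also measured. These were the stalk genes rla-0, rla-1 and rla-2, the fusion genes ubq-2 and ubl-1, and rack-1, whose product sits on the small subunit. They had means of 214.7 to 1251 RPKM and a median SD of 0.17 on the log2 scale. None of the 6 was called in any comparison (limma). Of the genes of other steps of translation, none of 9 for elongation, 31 for ribosome biogenesis, 30 for tRNA synthetases or 68 for the mitochondrial ribosome was called. Over all genes 0.0% to 0.435% were called per comparison, so lists this short would hold few calls or none at that rate. The median SD was 0.20 for elongation, 0.25 for biogenesis, 0.23 for synthetases and 0.34 for the mitochondrial ribosome. Of 36 initiation genes 1 was called, ife-5, which encodes a cap-binding protein: its log2 fold change was 2.10 (SE 0.33, adjusted p = 0.0173 by limma) in tm1200 against never-mutated libraries and 2.98 (SE 0.34, adjusted p = 0.00662 by limma) in set-32 mutants against set-32(+) after repair. Its values in the repaired against tm1200 comparison and in the interaction, which share libraries with those, were -2.27 and 2.43.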

How the data were processed

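RNA-seq of 23 samples forms the series, and 19 libraries were used. Those 4 of generation F20 were not used here. The deposited table gives RPKM values, made by the authors, for 100257 windows of 1 kb, of which 24 other per-sample columns were not used. The submitters' processing notes name Bowtie 0.12.7. Genome build, strand handling and the treatment of reads with several matches were not given in the sources used here. Ribosomal RNA was cut with RNase H and poly(A) RNA was not selected, per the labels' protocols.

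Windows were placed on WBcel235 by matching the profile of summed levels to exon density: 191 of 202 segments of 500 windows matched best within 100 bp and 198 within 300 bp, and 73 of the 76 ribosomal protein genes tested lay in, or directly beside, the highest of the 6 windows to each side. Windows of chromosome V from 19500 kb were left unplaced. A gene's value was the mean of windows that overlap it by at least 500 bp, or its best window. Depth was taken from the value of 1 read, of which 81.8% to 85.0% of positive values were whole multiples (within 0.0051 RPKM). Since many values were parts of a read, no count test was run.

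limma 3.58.1 (lmFit, eBayes with trend) in R 4.3.3 was fitted on log2(RPKM + 1) over genes with a mean of at least 1 RPKM, so fold changes are understated at low levels. Within the 10 libraries without repair, hrde-1 state, set-32 and met-2 set-25 were additive terms. Within the 9 repaired libraries set-32 and met-2 set-25 were, and comparisons across repair used all 19 libraries with 6 groups and met-2 set-25. The fit was tested on simulated reads. Figures and summaries used Python 3.11.15 with pandas 2.3.3.

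The members and lists were chosen with earlier results of these data known. Named were the 5 genes with the highest and lowest mean and the largest and smallest SD, the 3 with the largest positive and negative fold change in each comparison, gene pairs, and list genes called. The genes rpl-6, rpl-14, rpl-26, rpl-29, rpl-36, rps-2, rps-20 and rps-21 fall outside this rule where printed and were chosen after their values were seen. From the list of stalk genes, rpa-0, rpa-1 and rpa-2 were left out, since the annotation has no rpa-0 and gives the other names to replication proteins. Sequences were not used here, so the planned description of proteins and promoters was not made. Alternatives were other pseudocounts, filters, windows, scaling, alleles, no met-2 set-25 libraries, strain as a block (added after the data were seen) and each library left out in turn.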

Additional observations from a re-analysis of the deposited data

Results flagged for a closer look

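In groups of 4 or 5 repaired libraries, 6 of 78 checks on ribosomal protein genes found 1 library far from its group. The checks did not cover all these genes in both groups, and they share libraries. The rule flags about 1 in 20 by chance. All flagged genes are among those named for their mean, SD or fold change in the same data. That rate therefore does not hold for them, and no excess of flags is claimed. Among repaired set-32 mutants, rps-6 was low at 558.1 RPKM in set-32(ok1457); hrde-1(+R) F5, and rpl-42 had 0.88 RPKM in set-32(ok1457); hrde-1(+R) F8 with the other 4 libraries at 0. Among repaired libraries with wild-type set-32, hrde-1(+R) F4 was high for rps-12 at 1499 RPKM, for rpl-41.2 at 706 RPKM and for rpl-24.2 at 94.94 RPKM. In the same group rpl-42 had 0.08 RPKM in the F5 library with met-2(n4256) set-25(n5021), less than the worth of 1 read, with the other 3 libraries at 0. Where all other libraries are at 0, any value above 0 stands far from them, so both flags of rpl-42 say little.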

How the results depend on the processing

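The count of ribosomal protein genes called by limma was 0 in each comparison under every alternative run for it, of 76 tested, or 77 with no filter and 74 without divided windows. Single alleles were run for the set-32 comparisons alone, and fits without met-2 set-25 libraries for all but the met-2 set-25 ones. One call appeared with no fold minimum and without tm1200 set-32(+) replicate 2, for rpl-24.2 after repair against hrde-1(tm1200), at 0.761, while without tm1200 set-32(+) replicate 1 it had 0.458 and an adjusted p of 0.756. The median fold change of the 76 genes moved by more than the spread between replicates in 3 cases. That spread was 0.116. For set-32 after repair the median was -0.1215 in the main fit and -0.2461 with set-32(ok1457) alone. With 1 library left out it ran from -0.2342 to -0.01015, a smaller move than the spread. For met-2 set-25 after repair it was -0.0477 in the main fit and -0.1812 without the repaired library that carries set-32(red11) and met-2 set-25. The highest value with 1 library left out, 0.01827, moved by less than the spread. For the set-32 interaction the median was -0.198 without the met-2 set-25 libraries. Rescaling of libraries by the median ratio brought the median after repair against hrde-1(tm1200) to 0.0088, and the median SD of the 76 genes to 0.184. Calls over all genes moved more: for hrde-1(tm1200) against never mutated they ran from 12 to 51, with 49 in the main fit, and after repair against hrde-1(tm1200) from 9 to 57, with 46. The depth limits low genes: rpl-24.2 rests on few reads per library, and rpl-42 never passed the worth of 1 read. No paired analysis was possible by replicate number, because the replicate numbers were given in accession order and pair nothing. Strain does tie libraries across hrde-1 states, and strain (set-32 allele with met-2 set-25) as a block, chosen after the data were seen, left 0 of 76 called in the 3 comparisons between hrde-1 states, with 27 genes called in all for tm1200 against never mutated, 1 after repair against never mutated, where the main fit had 8, and 32 after repair against tm1200.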
